A study of Mus musculus with 13 samples.

Results

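The genes described here encode the Wnt ligands, their receptors and the proteins that pass on or limit the signal, measured in mouse retinal cells that were made to express the transcription factor Ikaros. They were chosen by name from the deposited RNA-seq table: every Wnt and Frizzled gene, the co-receptors, 4 secreted antagonists, the cytoplasmic transducers, the TCF/LEF factors and a set of feedback regulators. Of 56 protein-coding genes with such a name, 47 had at least 80 estimated read pairs summed over the 8 RNA-seq libraries, out of 35734 genes in the table. The 47 comprised 13 Wnt ligands, 10 Frizzled receptors, 5 co-receptors, 2 secreted antagonists, 7 cytoplasmic transducers, 4 TCF/LEF factors and 6 feedback regulators.

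Wnt proteins are lipid-modified secreted ligands that bind Frizzled receptors together with a co-receptor such as LRP5 or LRP6. In the canonical branch this stops the destruction complex of APC, Axin and kinases from degrading beta-catenin, which then enters the nucleus and acts on target genes with the TCF/LEF factors, while other branches run through ROR and RYK receptors to the cytoskeleton. In the developing eye, Wnt signalling is known for its part in the ciliary margin, in the growth of retinal vessels and in the eye field. Several of its targets (Axin2, Lef1, Nkd1, Lgr5) report on the pathway, and of these Axin2 and Nkd1 limit it.

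The study concerns Ikaros family proteins in the timing of cell fates in the retina. The RNA-seq arm compared 4 Control libraries with 4 Ikzf1 libraries, and Ikzf1 is the gene that encodes Ikaros. All 8 came from CD1 mice, an outbred stock, at postnatal day 0: retinas were dissociated with Accutase, the cells were transfected with an Amaxa kit, kept in culture for 9 h and sorted for green fluorescence. The Control cells carried GFP alone, at 400000 cells per replicate, and the Ikzf1 cells carried Ikzf1-IRES-GFP, in which one transcript gives both proteins, at 300000 cells per replicate. Both groups share the transfection, the culture and the sort. The labels call the 4 libraries of each group biological replicates.

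The libraries held 21.4 to 30.5 M estimated read pairs. Ikzf1 (ENSMUSG00000018654) took 0.00729 to 0.00918% of the reads in the Control libraries and 16.0 to 17.3% in the Ikzf1 libraries, so every library matched its label. The cells are labelled retinal progenitors, and the 9 progenitor markers examined summed to 1855 to 1936 CPM (read counts relative to library size, with libraries scaled by the TMM method) in the controls and 1479 to 1504 with Ikzf1; 8 of the 9 passed the test described below, 6 of them lower. Markers of photoreceptor precursors were present as well, at a summed 755 to 880 CPM in the controls and 431 to 495 with Ikzf1, and all 5 were lower. Retinal ganglion cell markers summed to 138 to 143 and 74.9 to 82.1 CPM, a fall that came from Nefl (means of 118 and 18.9 CPM), while the 3 other tested markers, Isl1, Rbpms and Sncg, rose. Amacrine and horizontal cell markers summed to 176 to 227 and 182 to 215, and ciliary margin markers to 59.7 to 67.2 and 51.6 to 53.6, in that order. Of the 5 ciliary margin markers, Wfdc1, Msx1 and Otx1 were below 1 CPM in both groups. Of the 4 that were tested, 1 rose and 2 fell, so the sum does not stand for all of them. The endothelial sum, 404 to 475 CPM against 207 to 247, came nearly all from Kdr, with a mean of 439 CPM in the controls and 217 with Ikzf1, while Cdh5, Cldn5 and Tek were below 1 CPM in both groups. Retinal pigment epithelium markers summed to 22.6 to 24.7 against 14.3 to 18.3 CPM and astrocyte markers to 5.75 to 7.12 against 5.11 to 6.05 CPM. The pigment epithelium markers Pmel and Best1 were below 1 CPM in both groups. All 5 microglial and all 4 lens markers were below 1 CPM. The part of these shifts in the changes of Wnt genes was not tested, and in such bulk samples fewer cells of a type and less RNA per cell cannot be told apart.

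In the Control libraries the pathway was led by its intracellular core, compared here in TPM, a share of all transcripts that is corrected for transcript length. Ctnnb1, which encodes beta-catenin, stood at 435 ± 12.98 TPM (SD, n = 4) and held 59.3% of the summed TPM of the 7 transducers. Among the ligands, Wnt7b, known in the eye for its part in the regression of early vessels, stood highest at 31.4 ± 1.22 TPM and held 45.2% of the ligand sum of 69.6 TPM. Fzd5, a receptor known for its place in the eye field, led the Frizzleds at 50.7 ± 2.45 TPM (38.6% of their sum). The highest co-receptor was Ryk, a receptor with an inactive kinase domain, at 63.6 ± 2.16 TPM. Tcf7l2 led the TCF/LEF factors at 24.9 ± 0.711 TPM and Lgr4, an R-spondin receptor, led the feedback regulators at 48.7 ± 1.61 TPM. The secreted antagonist Sfrp1 had 4.03 ± 0.742 TPM (all SD, n = 4). The members spanned a wide range, from Ctnnb1 down to Dkk2 at 0.0873 TPM, and the ligands alone ran from 31.4 TPM for Wnt7b to 0.333 TPM for Wnt3.

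**Figure D1:**
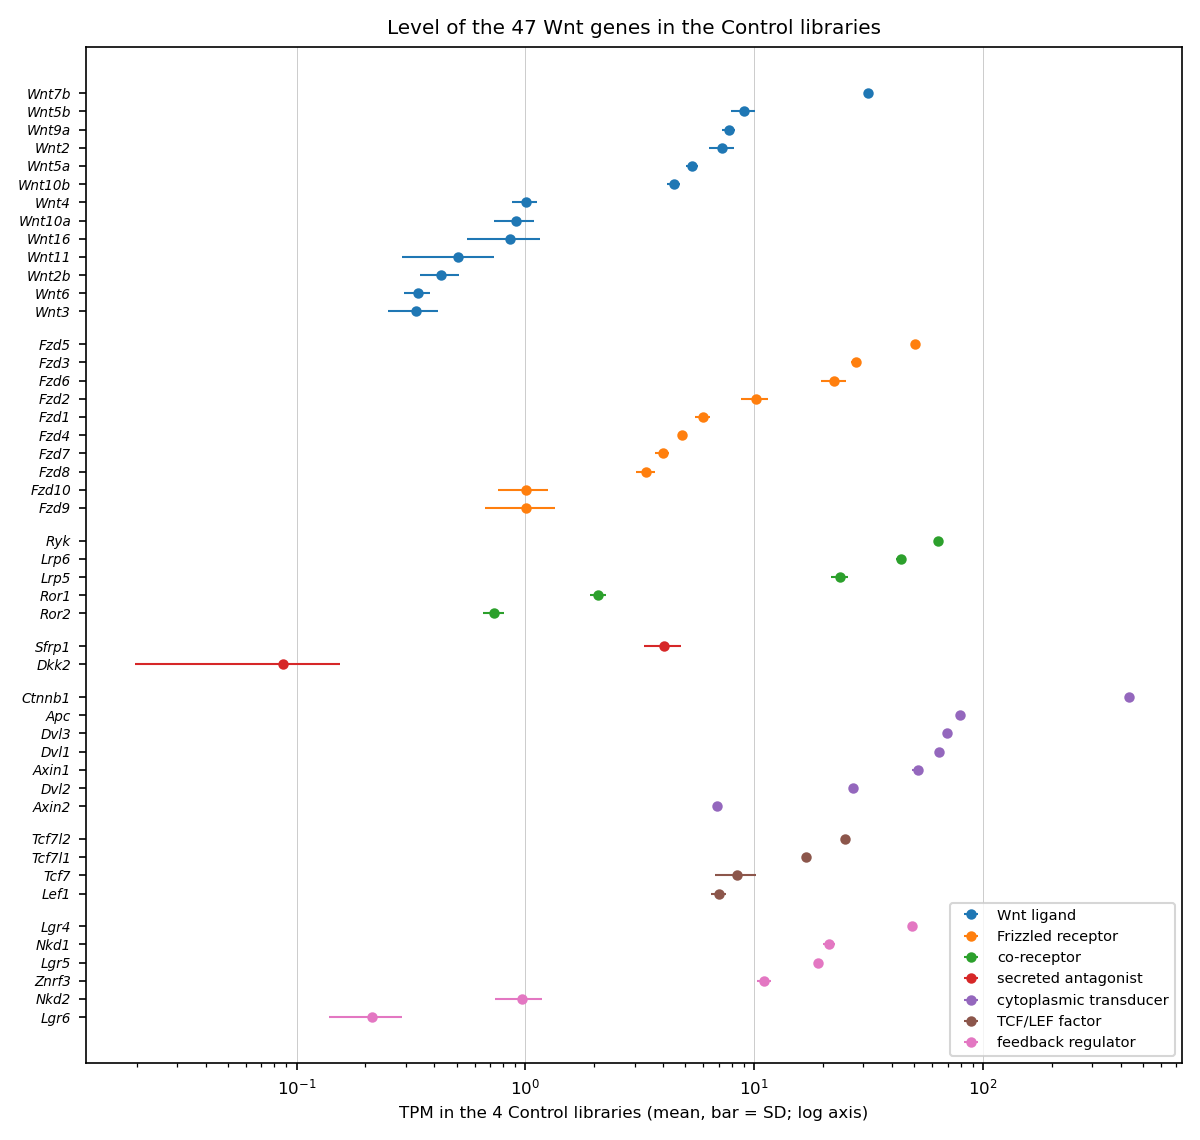
Mean level of the 47 Wnt genes in the 4 Control libraries in TPM on a log axis, with bars for the SD and colours for the role in the pathway. Ctnnb1 at 435 TPM stands farthest to the right, Wnt7b at 31.4 TPM leads the ligands and Dkk2 at 0.0873 TPM is lowest.

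The minimum of 80 read pairs kept Dkk2 (88.2) and Wnt11 (100) just inside, and left Rnf43 (68.0) and Dkk1 (54.3) just outside. Below it were also Frzb and Wnt9b with 43.0 read pairs each, Wnt7a with 16.0 and Wnt8a with 10. Wnt1, Wnt3a and Wnt8b, each with a mean below 1 normalised count in the authors' deposited table, could not be joined to transcripts. All 47 members passed the filter on low counts, which asked for 0.396 CPM in at least 4 libraries. Dkk2 passed it only through the Ikzf1 libraries, and a gene that enters in this way had to be higher there. Wnt6 was above the minimum in 1 Control library and 4 Ikzf1 libraries, so it also needed the Ikzf1 libraries to pass. Wnt11 (2 Control and 4 Ikzf1 libraries) and Wnt3 (3 Control and 2 Ikzf1 libraries) likewise did not pass through the Control libraries alone.

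The comparison of Ikzf1 with Control asked which Wnt genes moved when Ikaros was added. Of the 47 genes, 34 passed edgeR's quasi-likelihood test at an adjusted p of 0.05: 18 rose and 16 fell. The comparison was broad, since 59.1% of all 15575 genes tested passed it, 29.3% higher and 29.8% lower, beside 72.3% of the Wnt genes. Changes of at least 0.58 on the log2 scale (about 1.5-fold) were found in 16 Wnt genes, 9 higher and 7 lower (34.0%), against 23.3% of all genes, and changes of at least 1 in 10 of them, 7 higher and 3 lower, against 11.4% of all genes. The ranges of the groups did not overlap for 34 of the 47, or 72.3%, against 53.1% of all genes tested. In each of these counts the higher genes include Dkk2, whose direction the filter on low counts set, and Wnt6, whose direction it favoured. The median log2 fold change of the Wnt genes was 0.02 and that of all genes 0.00, while the median size of change without regard to sign was 0.43 and 0.29. The Wnt genes thus moved in both directions in nearly equal number. The counts by role given below stand beside these shares over all genes.

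**Figure D2:**
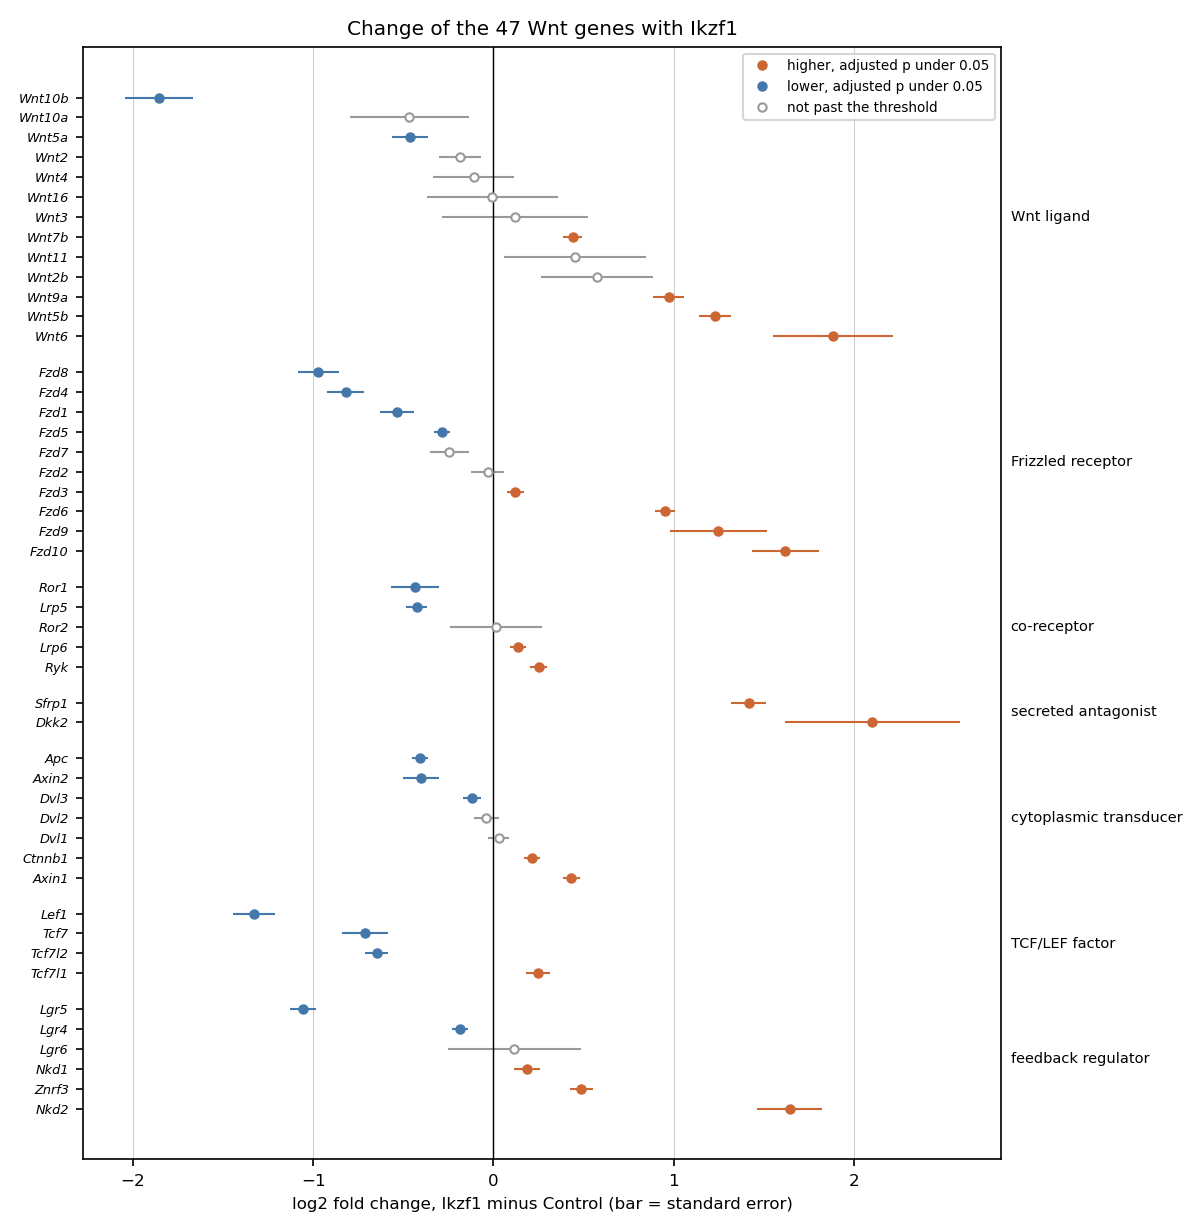
Log2 fold change of each of the 47 Wnt genes (Ikzf1 minus Control, 4 libraries each) by role, with bars for the standard error and filled points for genes that passed edgeR's test at an adjusted p of 0.05. The 34 filled points lie on both sides of 0, from Wnt10b at -1.85 to Dkk2 at 2.10, and the co-receptors and cytoplasmic transducers all lie within 0.43 of 0.

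The sequences upstream of the Wnt genes were examined because the protein added here is a DNA-binding factor. Ikaros is known to bind sites with the core TGGGAA, and the TCF/LEF factors bind sites such as CTTTGAT. RefSeq windows (GRCm38.p6), cut to the 250 bases before a RefSeq start of the gene, were at hand for 33 of the 47 members. The Ikaros core, as TGGGAA or on the other strand TTCCCA, was in 21.6% of 32536 such windows over all genes and in 7 of the 42 windows of the members (16.7%), each of a different gene. Among members with a window it was present for 4 of 11 that rose (Nkd2, Tcf7l1, Wnt5b, Wnt9a), for 0 of 11 that fell and for 3 of 11 that did not pass the test (Dvl1, Lgr6, Wnt3). These counts are per gene and the 21.6% is per window, so a gene with several windows, as Wnt5b has, is more likely to hold a match. A link of the core with the direction of change was not tested, and its share by direction over all genes was not counted. The TCF/LEF core, as CTTTGAT or ATCAAAG, was in 3.21% of all windows and in 2 windows of the members, 1 each of Wnt5b and Wnt11. The letters of these cores do not contain one another. A match describes letters in a window, not a bound site. The stretches around the matches of the 4 genes that rose are shown 5′ to 3′ on the strand of the gene, with the core in capitals; Wnt5b has 3 windows at separate start sites, of which one holds the Ikaros core, one the TCF/LEF core and the outermost neither.
Nkd2 (chr13:73847846-73847881, minus strand): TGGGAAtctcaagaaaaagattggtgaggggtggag
Tcf7l1 (chr6:72789065-72789130, minus strand): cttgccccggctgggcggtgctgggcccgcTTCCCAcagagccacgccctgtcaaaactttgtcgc
Wnt9a (chr11:59306680-59306725, plus strand): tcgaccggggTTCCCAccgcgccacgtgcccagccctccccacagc
Wnt5b, Ikaros core (chr6:119467244-119467309, minus strand): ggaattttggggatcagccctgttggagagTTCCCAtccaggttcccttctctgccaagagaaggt
Wnt5b, TCF/LEF core (chr6:119449421-119449487, minus strand): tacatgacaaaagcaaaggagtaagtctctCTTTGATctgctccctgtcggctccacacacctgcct
The core lay 250 to 245 bases before the RefSeq start of Nkd2, 55 to 50 before that of Tcf7l1 and 240 to 235 before that of Wnt9a. In the authors' deposited table Tcf7l1, on the minus strand, reaches to chr6:72789254, so its RefSeq start and core lie inside that gene interval. For Wnt5b the Ikaros core lay 68 to 63 bases before one internal start and the TCF/LEF core 71 to 65 bases before another. In the 3 genes that did not pass, whose stretches are not shown, the Ikaros core also lay within the window. It began 171 bases before the start of Dvl1, 201 before that of Lgr6 and 194 before that of Wnt3.

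The Wnt ligands divided. Of 13, 4 rose (Wnt5b, Wnt6, Wnt7b, Wnt9a), 2 fell (Wnt5a, Wnt10b) and 7 did not pass the test. Wnt10b (ENSMUSG00000022996, GRCm38 chr15:98770712-98778150), a ligand known for driving canonical signalling in hair follicle and bone, had 5.10, 5.04, 5.11 and 4.67 CPM in Control replicates 1 to 4 and 0.980, 1.76, 1.60 and 1.17 CPM in Ikzf1 replicates 1 to 4. The highest Ikzf1 library lay far below the lowest control. Its log2 fold change of -1.85 ± 0.19 (SE, n = 4 each), 3.61-fold lower, was the largest fall among the 47 genes, with an adjusted p of 1.93e-09 in edgeR's test.

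Wnt5b (ENSMUSG00000030170, chr6:119432531-119544347), mostly known for non-canonical signalling, moved the other way, with 8.56, 10.7, 9.38 and 9.90 CPM in the controls and 19.5, 23.6, 23.9 and 23.4 CPM with Ikzf1. The groups were well apart, and Ikzf1 replicate 1 was the low library of its group. The gene was 2.35-fold higher (log2 1.23 ± 0.09, edgeR adjusted p 1.80e-12). It overlaps the protein-coding gene Fbxl14 on the opposite strand, whose mean normalised count was 1993 in the authors' deposited table, and whether counting used the strand was not stated. Ctnnb1, Dvl1, Dvl2 and Lgr5 also overlap a protein-coding gene on the opposite strand, so reads could be shared there too.

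Wnt9a (ENSMUSG00000000126, chr11:59306928-59333552), a ligand known from joint and blood stem cell development, had 13.9, 11.8, 13.1 and 12.9 CPM in the controls and 22.0, 28.7, 25.9 and 25.2 CPM with Ikzf1. Every Ikzf1 library was above every control, and the gene was 1.96-fold higher (log2 0.97 ± 0.08, edgeR adjusted p 6.32e-11). Wnt6 (ENSMUSG00000033227, chr1:74771892-74785322), a ligand of epithelia, was much scarcer, with 0.319, 0.307, 0.402 and 0.348 CPM in the controls and 1.45, 1.41, 1.28 and 1.03 CPM with Ikzf1. Its groups did not overlap either, and it was 3.69-fold higher (log2 1.88 ± 0.33, edgeR adjusted p 1.75e-05). Wnt6 could not pass the filter on low counts without the Ikzf1 libraries, so a higher level there was favoured in advance. Its neighbour Wnt10a, 6193 bp away on chromosome 1 with the same orientation and no gene between them, did not pass the test (log2 -0.47 ± 0.33, edgeR adjusted p 0.235).

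Wnt7b (ENSMUSG00000022382, chr15:85535437-85582473), the leading ligand by TPM, had 50.5, 47.8, 45.4 and 50.1 CPM in the controls and 59.4, 68.8, 67.2 and 67.5 CPM with Ikzf1. The groups did not overlap, but the rise was smaller, 1.36-fold (log2 0.44 ± 0.06, edgeR adjusted p 8.73e-08). Wnt5a, the best known ligand of the non-canonical branch and the closest relative of Wnt5b, went from 11.4 ± 1.11 to 8.32 ± 0.327 CPM (SD, n = 4 each; log2 -0.46, edgeR adjusted p 0.000242). That fall was lost when the mean transcript length was given to the fit as an offset (log2 -0.29, edgeR adjusted p 0.0640). The 7 other ligands (Wnt2, Wnt2b, Wnt3, Wnt4, Wnt10a, Wnt11, Wnt16) had log2 fold changes from -0.47 for Wnt10a to 0.57 for Wnt2b. Of the 13 members of any role that did not pass, 8 had under 3 CPM in the controls, and a p above the threshold does not show that their levels were the same.

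**Figure D3:**
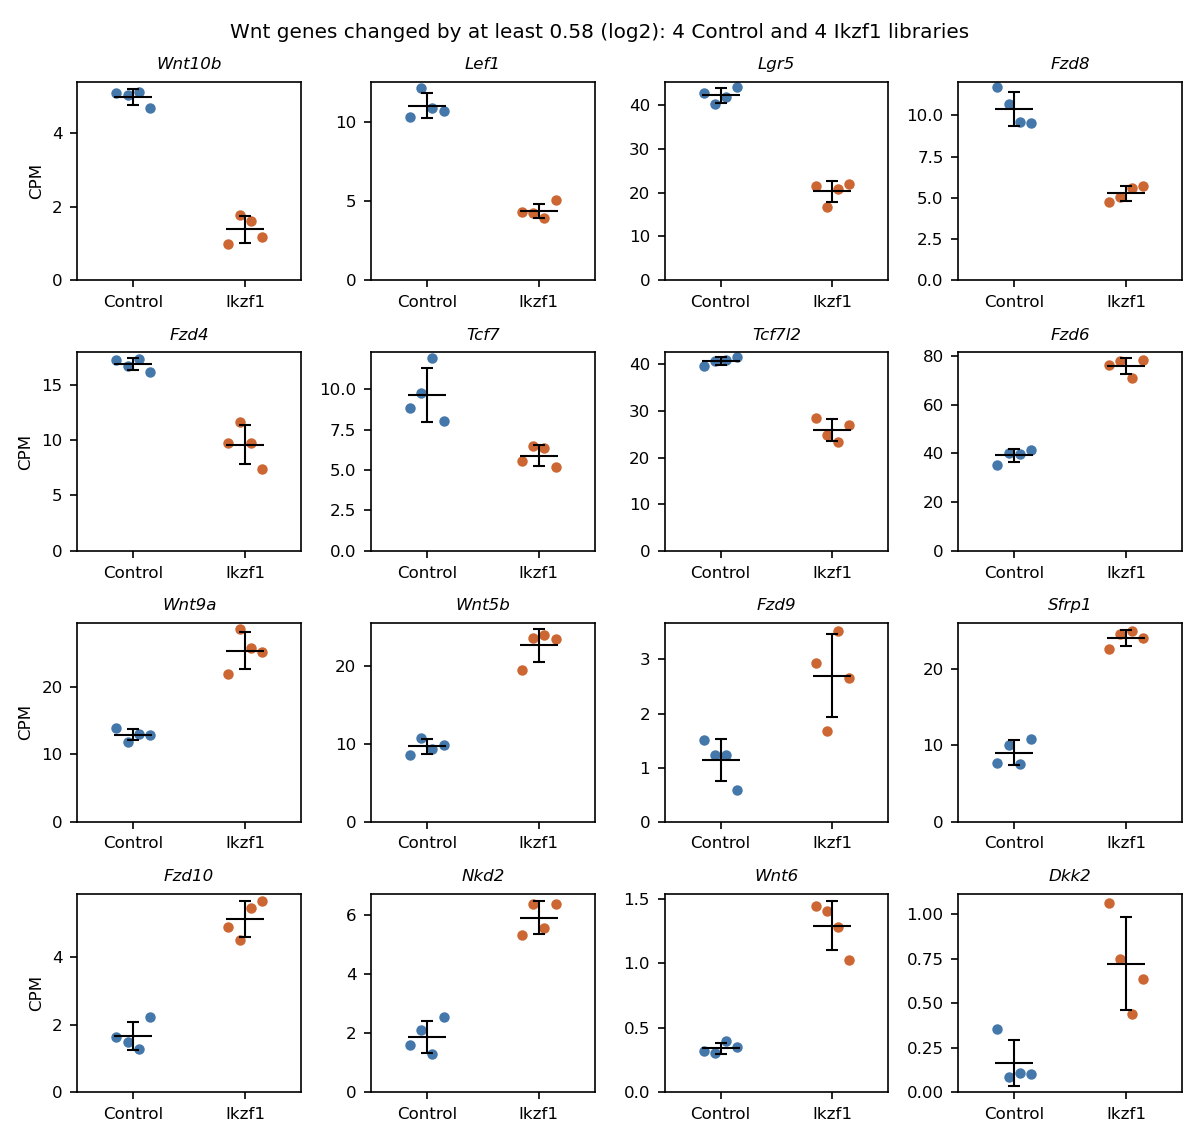
CPM of the 16 Wnt genes that passed edgeR's test with a log2 fold change of at least 0.58, each panel on its own linear axis from 0, with 1 point per library and the mean and SD in black (4 Control and 4 Ikzf1 libraries). In all 16 panels the points of the groups do not overlap, with 9 genes higher and 7 lower in the Ikzf1 libraries. The 9 include Dkk2 and Wnt6, for which the filter on low counts set or favoured a higher level with Ikzf1.

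The Frizzled receptors also moved both ways, with 4 of 10 higher (Fzd3, Fzd6, Fzd9, Fzd10), 4 lower (Fzd1, Fzd4, Fzd5, Fzd8) and 2 not passing the test (Fzd2, Fzd7). Fzd6 (ENSMUSG00000022297, chr15:39006034-39038188), known for planar polarity of skin and hair, had 35.3, 40.1, 39.8 and 41.5 CPM in the controls and 76.2, 77.9, 70.9 and 78.3 CPM with Ikzf1. All Ikzf1 libraries were far above all controls, with a 1.93-fold rise (log2 0.95 ± 0.06, edgeR adjusted p 1.63e-14), which had the smallest p of the 47 genes. Fzd10 (ENSMUSG00000081683, chr5:128600844-128604093), a receptor of the canonical branch, had 1.63, 1.49, 1.28 and 2.23 CPM in the controls and 4.90, 4.49, 5.45 and 5.65 CPM with Ikzf1. It was 3.08-fold higher with no overlap (log2 1.62 ± 0.18, edgeR adjusted p 1.40e-08). Fzd9 (ENSMUSG00000049551, chr5:135248938-135251230) had 1.51, 1.23, 1.24 and 0.592 CPM in the controls and 2.94, 1.67, 3.53 and 2.66 CPM with Ikzf1. Here the groups lay close, with Ikzf1 replicate 2 just above the highest control, and the rise was 2.38-fold (log2 1.25 ± 0.27, edgeR adjusted p 0.000252).

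Fzd8 (ENSMUSG00000036904, chr18:9212163-9218136), a receptor for canonical ligands, had 11.7, 10.7, 9.60 and 9.55 CPM in the controls and 4.77, 5.02, 5.61 and 5.72 CPM with Ikzf1. The lowest control was well above the highest Ikzf1 library, and the gene was 1.96-fold lower (log2 -0.97 ± 0.11, edgeR adjusted p 2.83e-08). Fzd4 (ENSMUSG00000049791, chr7:89404355-89413134), the receptor through which norrin directs retinal vessel growth, had 17.2, 16.7, 17.3 and 16.1 CPM in the controls and 9.71, 11.6, 9.70 and 7.39 CPM with Ikzf1. It fell 1.76-fold with no overlap (log2 -0.82 ± 0.10, edgeR adjusted p 8.14e-08). Fzd5 (ENSMUSG00000045005, chr1:64730558-64737751), the leading Frizzled by TPM, had 182, 179, 164 and 179 CPM in the controls and 136, 140, 151 and 151 CPM with Ikzf1. Its groups were apart by a small margin, and it fell 1.22-fold (log2 -0.29 ± 0.05, edgeR adjusted p 5.68e-06). Fzd1 fell by 0.53 on the log2 scale and Fzd3 rose by 0.12, and the libraries of Fzd3 overlapped. Fzd7 had a log2 fold change of -0.24 and Fzd2 of -0.03, and neither passed.

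The co-receptors and cytoplasmic transducers had median absolute log2 fold changes of 0.25 and 0.21, beside 0.29 over all genes. Of these 12 genes, 9 passed the test, beside 59.1% of all genes. None reached 0.58, beside 23.3% of all genes, and the largest change was 0.43. Ryk (ENSMUSG00000032547, chr9:102834917-102908305) had 87.8, 86.2, 79.7 and 86.2 CPM in the controls and 106, 96.8, 103 and 99.5 CPM with Ikzf1. Every Ikzf1 library was above every control, by 0.25 ± 0.05 on the log2 scale (edgeR adjusted p 3.22e-05). Among the LRP co-receptors of the canonical branch, Lrp5 fell by 0.43 and Lrp6 rose by 0.14, the latter lost under the length offset (log2 0.11, edgeR adjusted p 0.105). Of the ROR kinases, receptors for Wnt5a, Ror1 fell by 0.43 and Ror2 had a log2 fold change of 0.02 that did not pass.

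Ctnnb1 (ENSMUSG00000006932, chr9:120929216-120960507) had 643, 607, 585 and 636 CPM in the controls and 733, 704, 697 and 731 CPM with Ikzf1. The groups did not overlap and the rise was 1.16-fold (log2 0.21 ± 0.04, edgeR adjusted p 0.000130). The Axin scaffolds of the destruction complex went opposite ways: Axin1, the constitutive one, rose by 0.43, and Axin2, which is itself a target of the pathway, fell by 0.40. Apc, another scaffold of the complex, fell by 0.41. Among the Dishevelled proteins, which carry the signal from Frizzled to Axin, Dvl3 had a log2 fold change of -0.12 with an adjusted p of 0.0420 in edgeR's test that passed in 5 of 14 alternative analyses, while Dvl1 (0.03) and Dvl2 (-0.04) did not pass.

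All 4 TCF/LEF factors passed, 3 lower and 1 higher. Lef1 (ENSMUSG00000027985, chr3:131110471-131224356), an activator with beta-catenin and a target of the pathway, had 10.3, 12.2, 10.9 and 10.7 CPM in the controls and 4.30, 4.23, 3.93 and 5.04 CPM with Ikzf1. The groups were wide apart, and the gene was 2.51-fold lower (log2 -1.33 ± 0.12, edgeR adjusted p 8.37e-11). Tcf7 (ENSMUSG00000000782, chr11:52252371-52283331), the other factor of this type best known from T cells, had 8.80, 9.78, 11.9 and 8.05 CPM in the controls and 5.54, 6.48, 6.37 and 5.18 CPM with Ikzf1. It fell 1.64-fold with no overlap (log2 -0.71 ± 0.13, edgeR adjusted p 2.03e-05).

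Tcf7l2 (ENSMUSG00000024985, chr19:55741820-55933654), the most abundant of the 4 by TPM in the controls, had 39.6, 40.7, 40.9 and 41.7 CPM in the controls and 28.6, 24.9, 23.3 and 27.1 CPM with Ikzf1. The control libraries lay close together and all above the Ikzf1 libraries, with a 1.57-fold fall (log2 -0.65 ± 0.06, edgeR adjusted p 1.15e-09). Tcf7l1, which acts mostly as a repressor of target genes, was the one that rose, from 22.8 ± 1.10 to 27.0 ± 1.04 CPM (SD, n = 4 each; log2 0.25 ± 0.07, edgeR adjusted p 0.00230). It is one of the 7 members with the Ikaros core in a window, of which 3 did not pass the test.

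Among the feedback regulators, 3 of 6 rose (Nkd1, Nkd2, Znrf3), 2 fell (Lgr4, Lgr5) and Lgr6 did not pass. Lgr5 (ENSMUSG00000020140, chr10:115450311-115587780), an R-spondin receptor known as a marker of stem cells and a Wnt target, had 42.7, 40.1, 41.8 and 44.0 CPM in the controls and 21.6, 16.7, 20.8 and 21.8 CPM with Ikzf1. The groups were far apart, with a 2.08-fold fall (log2 -1.06 ± 0.07, edgeR adjusted p 4.50e-13). Its relative Lgr4 (ENSMUSG00000050199, chr2:109917647-110014257) had 119, 124, 121 and 120 CPM in the controls and 109, 98.8, 110 and 108 CPM with Ikzf1. These groups did not overlap either, but the fall was small (log2 -0.18 ± 0.04, edgeR adjusted p 0.000720).

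Nkd2 (ENSMUSG00000021567, chr13:73818534-73847631), a Dishevelled-binding antagonist, had 1.59, 2.11, 1.31 and 2.54 CPM in the controls and 5.32, 6.39, 5.57 and 6.39 CPM with Ikzf1. It rose 3.13-fold with a clear gap between the groups (log2 1.64 ± 0.18, edgeR adjusted p 8.41e-09). Its relative Nkd1, a common Wnt target, rose by 0.18 with an adjusted p of 0.0297 in edgeR's test, and passed in 11 of 14 alternative analyses. Znrf3, a ubiquitin ligase that clears Frizzled receptors from the membrane, rose by 0.49 (edgeR adjusted p 1.80e-07).

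Both secreted antagonists above the read minimum rose. Sfrp1 (ENSMUSG00000031548, chr8:23411502-23449632), a decoy with a Frizzled-like domain that is known in the eye, had 7.65, 10.05, 7.59 and 10.8 CPM in the controls and 22.6, 24.6, 25.0 and 24.1 CPM with Ikzf1. It was 2.67-fold higher with no overlap (log2 1.42 ± 0.10, edgeR adjusted p 1.36e-12). Dkk2 (ENSMUSG00000028031, chr3:132085292-132180304), a ligand of LRP5 and LRP6, had 0.358, 0.0877, 0.110 and 0.105 CPM in the controls and 1.06, 0.749, 0.441 and 0.639 CPM with Ikzf1. Control replicate 1 stood above the other controls and close to the lowest Ikzf1 library, without overlap. The log2 fold change was 2.10 ± 0.48 (edgeR adjusted p 0.000486), and it was 2.77 without Control replicate 1. As stated above, Dkk2 passed the filter only through the Ikzf1 libraries, so it had to come out higher.

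Of the pathway targets named in the background above, Axin2, Lef1 and Lgr5 fell and Nkd1 rose by 0.18, a change that did not pass in the authors' deposited table (DESeq2 adjusted p 0.132). These 4 genes are a selection. Of the 6 feedback regulators, which include Nkd1 and Lgr5, 3 rose (among them Znrf3 by 0.49) and 2 fell. Of 10 other common target genes tested in the wider list below, 3 rose and 5 fell. The output of the pathway was not tested. In the authors' deposited table, made with DESeq2, 30 of the 47 genes passed at 0.05, 16 higher and 14 lower, and all 30 also passed here in the same direction.

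The size of the changes was set beside the level of the genes. Of 28 members below 20 CPM in the controls, 13 changed by at least 0.58 (46.4%), beside 33.4% of the 7365 tested genes at that level. Of 19 members at or above 20 CPM, 3 did (Fzd6, Tcf7l2 and Lgr5; 15.8%), beside 14.3% of 8210 genes. The 13 genes include Dkk2 and Wnt6, for which the filter on low counts set or favoured a higher level with Ikzf1. The level of 20 CPM was chosen after the values were seen. The test was passed by 17 of the 28 members below it, beside 50.0% of all genes there. At or above it, 17 of the 19 members passed, beside 67.3% of all genes there.

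**Figure D4:**
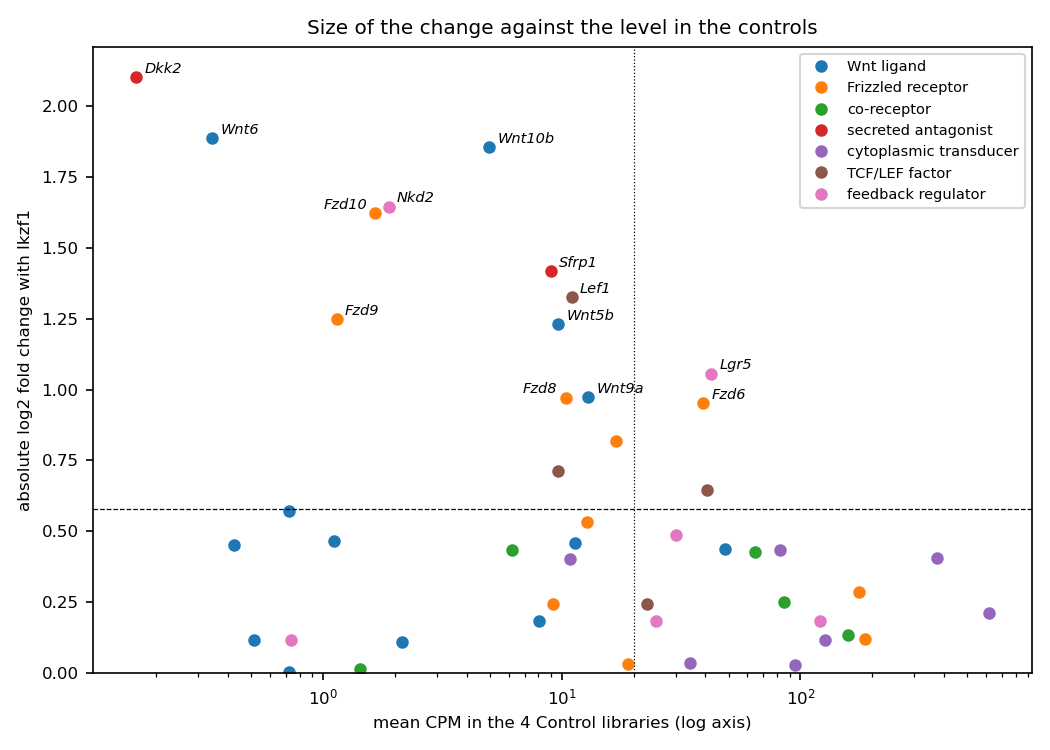
Size of the log2 fold change without sign against the mean CPM in the 4 Control libraries (log axis) for the 47 Wnt genes. The dashed line marks 0.58 and the dotted line 20 CPM: 13 of 28 genes left of it and 3 of 19 right of it reached 0.58 and passed the test.

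Transcript use within the genes was described from the estimated TPM of each transcript. Among 30 members with at least 2 transcripts, the share of the leading transcript in the gene's TPM overlapped between the groups in 29, and did not in Znrf3, whose 6311-nt transcript went from 48.8% ± 1.78 to 54.4% ± 2.93 (SD, n = 4 each). Over all genes examined in this way 5.47% did not overlap. The leading Lef1 transcript in the controls, of 3398 nt, held 64.3, 41.0, 61.9 and 46.5% of the gene's TPM there and 44.5, 0, 0 and 33.4% with Ikzf1. These shares spread widely within each group and overlapped, and the other Lef1 transcripts were not compared in this way.

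The wider pathway was examined through a second list. This list held 84 other Wnt pathway genes, of which 80 were joined to transcripts and 74 tested. Of the 74, 24 rose and 28 fell (70.3% passing, beside 59.1% of all genes), with a median log2 fold change of -0.08. Changes of at least 0.58 were found in 23 of them (31.1%, beside 23.3% of all genes), and the counts by role that follow stand against the same background. Both genes needed for making and releasing Wnt proteins were lower: Wls, the carrier that brings Wnts to the cell surface, fell by 0.94 (2.92 ± 0.582 to 1.52 ± 0.238 CPM; SD, n = 4 each), and Porcn, the enzyme that attaches the lipid, fell by 0.50.

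Of the secreted agonists, 2 were tested. Ndp, which encodes norrin, the Fzd4 ligand, fell by 0.91 (35.1 ± 1.77 to 18.7 ± 3.43 CPM), in the same direction as Fzd4, and Rspo2, an R-spondin, rose by 0.51. Of 5 genes listed as secreted antagonists or Wnt-inactivating enzymes, 2 fell and 1 rose: Sfrp4 fell by 1.11 and Dkk3 by 0.59, while Draxin rose by 0.55. Of 9 membrane cofactors and inhibitors, 5 fell and 1 rose. Apcdd1, a membrane inhibitor that binds Wnt and LRP5, rose by 1.88 (10.02 ± 1.97 to 37.1 ± 1.38 CPM; edgeR adjusted p 6.54e-14), while Ptk7, a co-receptor of planar polarity, fell by 1.08 and the glypican Gpc4 by 1.05.

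In the destruction complex and its regulators, 5 of 16 rose and 3 fell, none by 0.58 or more. The 3 that fell were Apc2 (by 0.56) and the kinases Csnk1a1 (by 0.41) and Gsk3b (by 0.34), which phosphorylate beta-catenin for degradation. Of 14 nuclear cofactors of beta-catenin, 9 rose and 2 fell. Tle2, a Groucho-type corepressor, rose by 1.00 and Pygo1, a coactivator, rose by 0.73. Of its partners, Bcl9l fell by 0.96 and Bcl9 rose by 0.67. Of 16 planar polarity and non-canonical effectors, 4 rose and 8 fell, with Prickle1 up by 1.13, Daam2 down by 0.82 and the core polarity protein Vangl2 down by 0.61.

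Of 10 common target genes tested, 3 rose and 5 fell. Myc, the growth regulator, fell by 1.91 on the log2 scale (73.2 ± 3.24 to 19.5 ± 2.29 CPM; edgeR adjusted p 7.42e-19). Bmp4, a growth factor of the dorsal eye, had 30, 35, 63 and 20 reads in the controls and 4, 1, 10 and 4 with Ikzf1, all below the controls (edgeR adjusted p 7.26e-06). It passed the filter on low counts only through the Control libraries, so it had to come out lower if it was tested. Sall4, a zinc finger factor of pluripotent cells, was almost silent in the controls, with 0, 1, 3 and 0 reads, and had 13, 28, 42 and 23 reads with Ikzf1 (edgeR adjusted p 2.71e-07). It passed the filter only through the Ikzf1 libraries, as Dkk2 did, so it had to come out higher if it was tested, and no fold is given. Many of these genes are also set by other pathways.

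**Figure D5:**
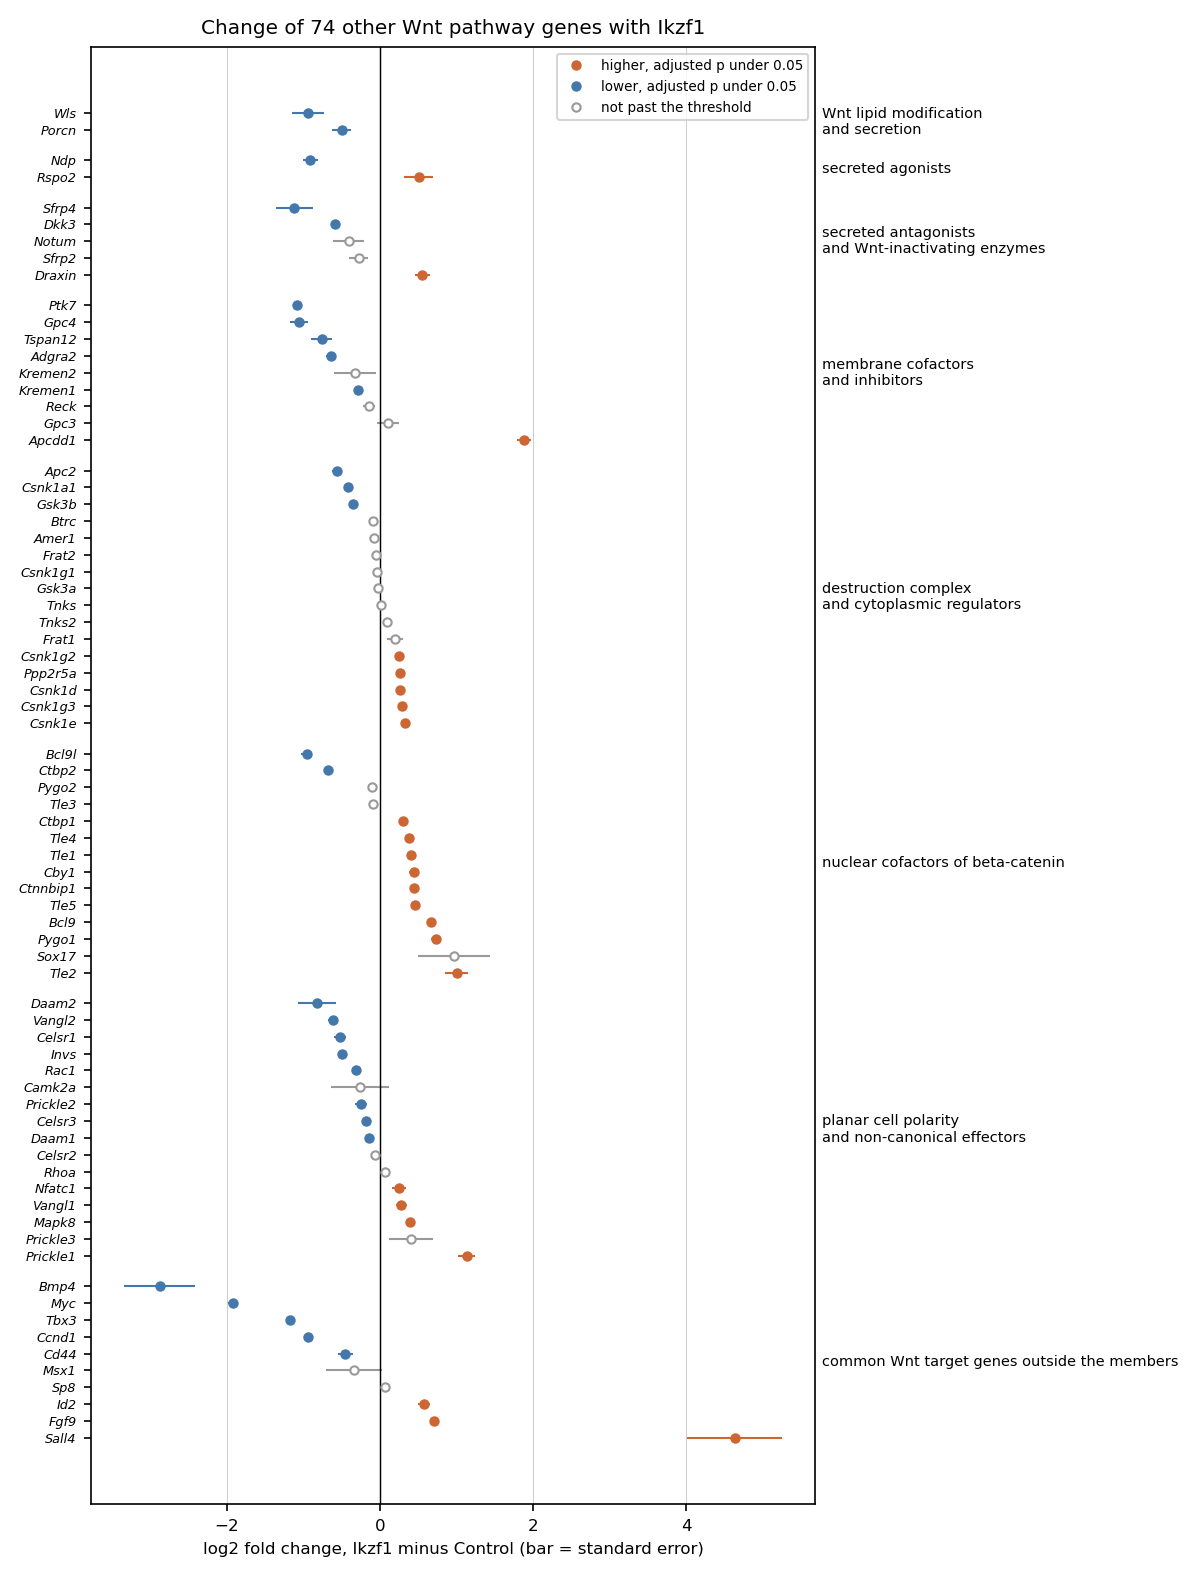
Log2 fold change of the tested genes of the wider Wnt pathway list (Ikzf1 minus Control, 4 libraries each) by role, with bars for the standard error and filled points for genes that passed edgeR's test at an adjusted p of 0.05. Of 74 genes, 24 are filled to the right of 0 and 28 to the left, with Wls and Porcn both to the left.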

How the data were processed

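RNA-seq was analysed in 4 Control and 4 Ikzf1 libraries; the CUT&RUN libraries of the series were not used here, since their peak lists are on another genome build than the gene coordinates. Ribosomal RNA was depleted and libraries were made with a stranded SMARTer kit, per the labels' protocols. The authors deposited salmon files of estimated counts and TPM per transcript, per the file headers. Their deposited comparison table, made with DESeq2, holds per gene the mean normalised signal over the 8 libraries, p-values, a Wald score, the log2 fold change and the error of that change, per the file headers. Versions and strand use are not given in the sources used here.

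Transcripts were joined to genes by finding the run of up to 60 neighbouring transcripts that gives the mean normalised count of a gene in the authors' deposited table, within a relative tolerance of 5e-09. Of 19529 genes whose mean was 1 or more, 19209 found their transcripts (98.4%). They held 99.1 to 99.3% of all reads in each library. With slightly moved means, 67 genes (0.343%) found a run. On simulated means of 17405 genes the join found 99.4%, and 100% of those were matched to the right transcripts.

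Estimated counts were summed per gene, rounded and tested with edgeR 4.0.16 (filterByExpr, TMM, robust quasi-likelihood F test, two-sided, no covariate), with Benjamini-Hochberg adjustment over 15575 genes. Standard errors were derived from F and the fold change (its size over root F). Tested on simulated data for this comparison with 15220 genes, edgeR recovered 86.6% of 97 genes changed by 0.58 and 83.7% of 98 changed by 1 on the log2 scale, with 5.68% of 176 calls false. Few genes were changed in the simulation, while 59.1% of genes passed in the data, so these rates may not carry over. Alternatives were DESeq2 1.42.0, its size factors, Ikzf1 left out of the scaling, no filter, a length offset, a replicate block and each library left out.

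Genes got a value per library if they passed with an absolute log2 fold change of at least 0.58 or had the highest TPM of their role. Of the wider list, up to 3 per role were named, by size of change, and Bcl9 was named beside Bcl9l. The members and lists were chosen with earlier results of these data known. Rows of 0 reads stayed out of the tests. Per-library depth, 21.4 to 30.5 M read pairs, leaves genes near the filter with about 10 reads in a library, which limits the precision of their values.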

Additional observations from a re-analysis of the deposited data

Results flagged for a closer look

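In 3 of the 42 sets of 4 libraries examined (21 named genes in both groups), 1 library lay far from the other libraries of its group, with a gap to the nearest of them that, as a share of the range, passed Dixon's limit for 4 values. Chance gives about 1 such set in 20. For Dkk2 this was Control replicate 1, with 0.358 CPM, above the 0.0877 to 0.110 CPM of the other controls. For Wnt10b it was Control replicate 4, with 4.67 CPM, below the 5.04 to 5.11 CPM of the others. For Wnt5b it was Ikzf1 replicate 1, with 19.5 CPM, below 23.4 to 23.9 CPM in the rest of its group. Wnt10b and Wnt5b kept their direction and passed edgeR's test with that library left out. Dkk2 did so too, but it passed the filter only through the Ikzf1 libraries, so its direction was set in advance.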

How the results depend on the processing

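The count of Wnt genes passing the test, 34, ranged from 30 with the length offset to 34 over the 14 alternatives, and from 32 to 34 when single libraries were left out. Of the 34, 29 passed under every alternative. Dvl3, Fzd3, Lrp6, Nkd1 and Wnt5a did not, with highest adjusted p of 0.234, 0.0915, 0.105, 0.162 and 0.0640 in edgeR or DESeq2, and the cause was not tested. Fzd7 passed without Ikzf1 replicate 4 (log2 -0.28, edgeR adjusted p 0.0456). Of the 13 genes not passing, 8 changed sign under some alternative (Dvl1, Dvl2, Fzd2, Lgr6, Ror2, Wnt3, Wnt4 and Wnt16), with log2 values from -0.26 to 0.37. No scaling moved the median of all genes by 0.01 or more on the log2 scale. The count over all genes ranged from 7844 with the length offset to 9385 with no filter, and that of the wider list from 45 to 59, the latter without Ikzf1 replicate 4. Same-numbered libraries did not deviate together (correlations -0.02, -0.06, -0.02 and -0.05), so the numbers do not pair them. With a replicate block 34 Wnt genes, 52 of the wider list and 8883 of all genes passed. Low depth limits the scarce genes, and estimates of transcript shares carry an error of their own.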
